A study of Glycine max with 18 samples.

Results

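The comparison described here sets mature dry seed of soybean (Glycine max) against embryos of the cotyledon stage, the end of the sampled course of seed development against its start. Its members were chosen by label, as the 3 dry seed libraries and the 3 cotyledon-stage libraries among the 18 libraries of the series. The series sequenced polyadenylated RNA from 6 stages with 3 biological replicates each, and the other stages were early, mid and late maturation embryos and seedlings taken 8 days after sowing. All plants belonged to the cultivar Williams 82, with no transgene and no treatment named. Cotyledon-stage embryos had been dissected from seeds 2.5 to 3.5 mm long. The dry seed samples carry the tissue label seed, not embryo, so a change of stage and a change of sampled tissue (seed coat kept or removed) cannot be told apart. How many plants went into a replicate is not stated.

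At the cotyledon stage a legume embryo has laid down its organs and its cells still divide. During maturation the cotyledons enlarge and fill with storage protein and oil, and toward the end the seed loses water and acquires tolerance of drying. The dry seed is metabolically quiescent but keeps a store of messenger RNA, part of which is available when the seed takes up water again. A comparison of both ends therefore shows the net remodelling of the transcript pool, and it misses what rose and fell again in between.

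The files identify genes only by locus identifiers. A gene table of the assembly Glycine max v4.0 with 59048 genes matched 0 of the 51546 identifiers, so no gene is named by function, lists of seed genes could not be formed, and the tissue labels could not be checked against marker genes. The 4 identifiers given for differences between the ends, and the 4 given for genes not called between the ends, were taken by fixed rules. Soybean carries many near-identical gene copies, and the treatment of reads that match several copies is not given in the sources used here, so the value of a single identifier is uncertain.

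Values are the deposited normalized signal, on a scale close to CPM, reads scaled to the size of the library. In each library 1 read was worth a fixed step, from which whole reads were recovered. Depth was 5010245 to 7931127 reads in cotyledon libraries and 4051230 to 4942973 in dry seed libraries. A count of 3 reads, the floor set for genes without any read, equals a value of 0.278 to 0.451 at the cotyledon stage and of 0.701 to 0.791 in dry seed, so low transcripts were less readily detected in dry seed. Floors cover counting error only. Pearson's r, taken across 36872 genes that are no independent replicates, on the log2(value + 1) scale was 0.985 to 0.990 within the cotyledon stage, 0.983 to 0.989 within dry seed and 0.493 to 0.519 between them. Both stages held a library that stood apart, each by a different measure. Dry seed replicate 1 differed from the other dry seed libraries by a chi-square per degree of freedom of 8.66 and 7.67, against 2.03 between those. Cotyledon replicate 3 held 40 abundant transcripts restricted to seedlings at 0.628% (median) of their level in seedlings. In the other cotyledon libraries the median was 0.1004% and 0.102%, and in dry seed 0.104% to 0.110%. These transcripts were chosen without cotyledon replicate 3, so the choice may itself keep the other libraries low. By chi-square per degree of freedom this library differed from the other cotyledon libraries by 3.41 and 2.45, against 2.41 between those. The part of either library in the results was not tested, but the main counts are given below with and without them.

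More genes were lower than higher in dry seed. Testing covered the 36872 genes that reached a value of 1 in 3 or more of the 18 libraries. Of these, 12586 (34.1%) were lower in dry seed than in cotyledon-stage embryos and 7697 (20.9%) were higher, together 55.0%. The test was limma on log2(value + 1) with 1 mean per stage, and calls required an adjusted p (Benjamini-Hochberg) below 0.05 together with a log2 difference of 1 or more in size. The 3 dry seed libraries did not overlap the 3 cotyledon libraries for 12570 of the genes called lower and for 7686 of those called higher. Over all genes tested, called or not, this held for 28682 (77.8%), so it adds little to the calls. Another 7671 genes passed the adjusted p with a log2 difference under the limit. The median log2 difference over all genes tested was -0.27, and it was 1.94 among genes called higher and -2.27 among those called lower. In bulk RNA, fewer cells of a kind and less RNA per cell cannot be told apart.

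**Figure D1:**
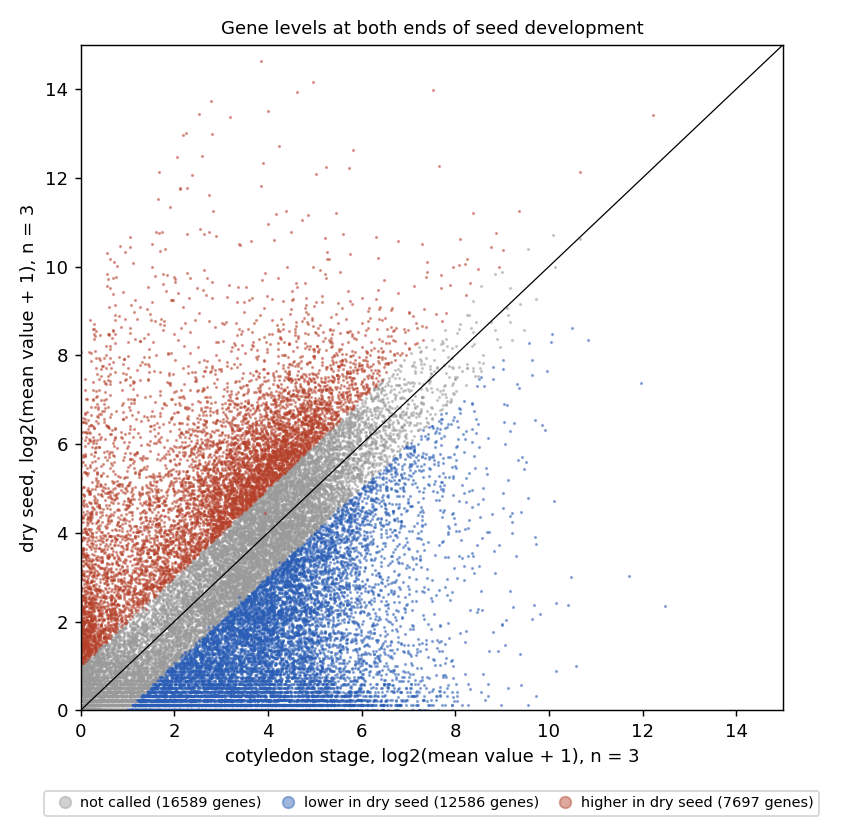
Each point is 1 of 36872 genes, placed by log2(mean value + 1) over 3 cotyledon libraries (horizontal) and over 3 dry seed libraries (vertical), and coloured by its call. The 7697 genes higher in dry seed reach further up than the 12586 lower genes reach to the right, and many lower genes lie along the bottom edge, near 0 in dry seed.

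The counts changed little without dry seed replicate 1 or cotyledon replicate 3. Without dry seed replicate 1, 7713 genes were higher and 12456 lower. Without cotyledon replicate 3, 7686 were higher and 12622 lower. The balance of directions did depend on how libraries were scaled. The deposited values carry a factor of the trimmed mean of M-values (TMM), and their sums per library were 718779 to 753954 at the cotyledon stage and 1068556 to 1189865 in dry seed. On plain CPM, an alternative chosen after seeing the data, the median of all genes moved from -0.27 to -0.67, and 5436 genes were higher and 15881 lower, together 57.8% of those tested. Genes called higher thus made up 37.9% of calls on the deposited scale, 25.5% on plain CPM and 40.8% with median-of-ratios scaling.

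The losses were more numerous, and on the log2(value + 1) scale the gains held most of the extreme differences. A log2 difference of 3 or more was found for 3996 genes lower (10.8% of those tested) and 1743 higher (4.73%) in dry seed, and of 5 or more for 836 lower and 480 higher. At 6 or more the numbers were near each other, with 277 lower and 288 higher. At 8 or more 17 genes were lower and 71 higher. These limits were counted on the deposited scale only. On plain CPM the 2 gains named below were 10.44 and 10.425, and the 2 losses -10.76 and -10.11. The split differed between ranges of abundance. The ranges were set on the same 6 libraries, so a gene very high at one end enters a high range through its own change, and the shares are a description. Of the 7417 genes with a mean under 1, 9.45% were lower and 2.63% higher in dry seed. Among the 13305 genes with a mean of 1 to 10 over the 6 libraries, 50.1% were lower and 16.1% higher in dry seed. Among the 14757 genes with a mean of 10 to 100, 33.3% were lower and 31.1% higher. Among the 1344 genes at 100 to 1000, 22.4% were lower and 54.6% higher, and of the 49 genes at 1000 or more, 4 were lower and 41 higher. A pseudocount of 1 shrinks differences of low genes, so those of the lowest range are understated.

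Glyma.19G147200 and Glyma.17G040800 had the largest gains on the log2(value + 1) scale, with differences too close to rank. Their order turned under upper-quartile and median-of-ratios scaling and on recovered reads. Values of Glyma.19G147200 at the cotyledon stage were 3.01, 3.24 and 8.04, and in dry seed 12924, 9140 and 10983, so the stages were far apart in every library. The log2 difference was 10.99 (SE 0.255, limma adjusted p = 7.79e-19). Its mean was higher at each later seed stage, from 25.2 ± 4.39 in early to 244 ± 63.8 in mid and 5024 ± 1213 in late maturation (SD, n = 3), and in seedlings it was back at 20.1 ± 3.04.

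Glyma.17G040800 reached a similar difference by a later path. Its cotyledon values were 8.28, 3.06 and 6.36 and its dry seed values 18384, 9858 and 12814, with dry seed replicate 1 the highest. The log2 difference was 10.99 (SE 0.389, limma adjusted p = 2.23e-16). In early maturation the mean was still 5.96 ± 1.55 (SD, n = 3). It was 107 ± 28.6 in mid maturation, 7852 ± 2458 in late maturation and 13.3 ± 10.6 in seedlings. The rise of this transcript thus began after early maturation. The lowest dry seed value of 9858 lay barely above the highest late maturation value of 9768.

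Among losses Glyma.11G176200 and Glyma.19G240800 had the largest differences on the log2(value + 1) scale, and their order turned on recovered reads. Glyma.11G176200 stood at 6567, 5810 and 4723 at the cotyledon stage and at 3.62, 2.64 and 6.08 in dry seed, where these values rest on 14, 10 and 26 reads. The log2 difference was -10.17 (SE 0.693, limma adjusted p = 1.06e-11). The decline was spread over the whole course, with means of 1660 ± 250 in early and 180 ± 14.6 in mid maturation (SD, n = 3). In late maturation replicate 1 was at 76.3 and the others at 3.61 and 1.54, so the libraries of that stage disagreed.

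Glyma.19G240800 fell in a similar manner. Cotyledon values of 1675, 1587 and 1319 compared with dry seed values of 1.29, 0.791 and 0.935, which rest on 5, 3 and 4 reads. The log2 difference was -9.57 (SE 0.473, limma adjusted p = 4.45e-14). Means were 215 ± 21.0 in early and 61.1 ± 12.3 in mid maturation (SD, n = 3), and the late maturation libraries held 19.9, 1.71 and 1.32. Neither transcript that fell was higher again in seedlings, where the means were 3.02 ± 0.828 for Glyma.11G176200 and 0.601 ± 0.245 for Glyma.19G240800.

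**Figure D2:**
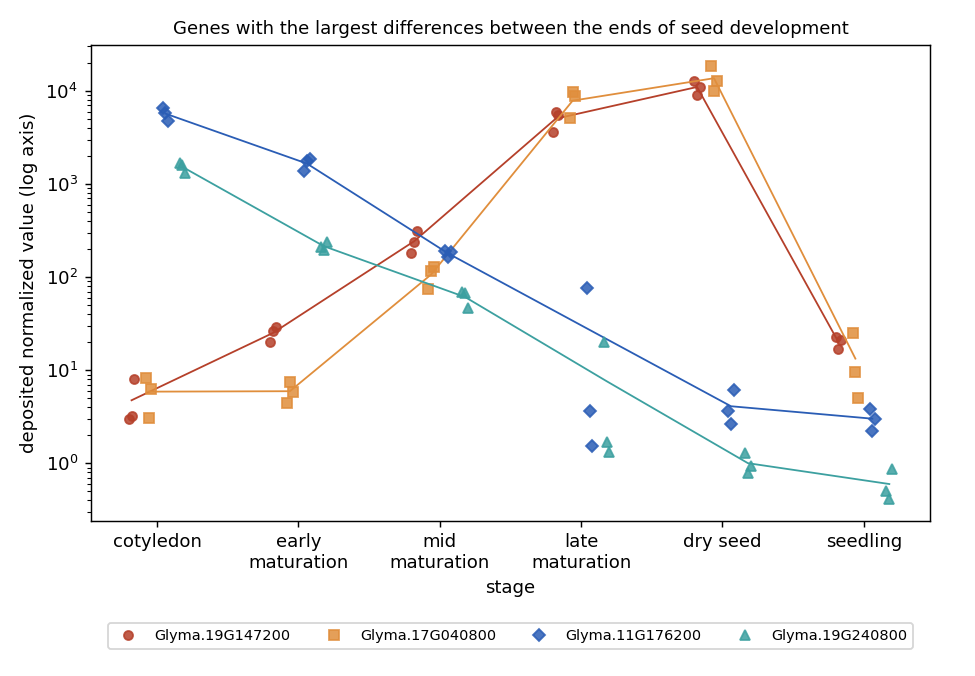
Normalized values (log axis) of the 4 named genes in all 18 libraries by stage, with a line through the stage means of 3 replicates. Both gained genes peak in dry seed and are low in seedlings, and both lost genes decline from the cotyledon stage onward, with late maturation replicate 1 above the others.

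Presence and absence were also unequal. Genes that reached a value of 1 numbered 28668, 28838 and 29397 in the cotyledon libraries and 24030, 23907 and 23413 in dry seed, a mean difference of -5184. The stages did not overlap, and the two-sided exact permutation test gave p = 0.1, the smallest that 3 against 3 libraries allow. In all, 19583 genes were at 1 or more in all 6 libraries, 5559 were so in every cotyledon library and under 1 in every dry seed library, and 1575 showed the reverse. With every library thinned to 4051230 reads, and a count of 5 reads in place of the minimum value, detected genes numbered 29251 to 30201 at the cotyledon stage and 22435 to 22854 in dry seed.

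A stricter definition, at least 10 in all libraries of one end and under 1 in all of the other, held for 1996 genes lost and 432 genes gained. The lost genes had a median cotyledon mean of 25.4, and 129 of them had a mean of 100 or more. A mean of 10 or more was still held by 1417 of them in early maturation, by 813 in mid maturation and by 6 in late maturation, so the loss ran through all of maturation. In seedlings 604 of them were again at a mean of 10 or more. The 432 gained genes had a median dry seed mean of 32.0, and 88 had a mean of 100 or more. A mean of 10 was reached by 21 of them in early maturation, by 69 in mid maturation, by 338 in late maturation and by 163 in seedlings. Reads were wholly missing from the dry seed libraries for 1812 of the genes called lower, and from the cotyledon libraries for 154 of those called higher. Such genes lay under the floor, which does not show that the transcript was absent.

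At the abundant end, 247 genes held a value of 100 or more in all 6 libraries. Of these 48 were called higher and 23 lower in dry seed, 28.7% together, against 55.0% of all genes tested. The filter itself removes genes with a large change, so nothing is read from the lower share.

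The transcript pool was more concentrated in dry seed. Pool means the summed value of a library, without correction for transcript length, so shares are shares of reads and not of molecules. The 10 most abundant genes held 3.93%, 3.72% and 3.47% of the cotyledon libraries and 12.7%, 11.96% and 12.9% of the dry seed libraries, which did not overlap (exact permutation test, two-sided p = 0.1). A total of 2606, 2760 and 2813 genes made up 50% of the pool at the cotyledon stage. In dry seed 629, 868 and 742 did so, with replicate 1 the most concentrated.

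Different genes filled the top ranks. Of the 100 most abundant genes of dry seed, 12 were also among the 100 most abundant of the cotyledon stage. The dry seed group had a median rank of 10981 at the cotyledon stage and held 2.48% of that pool, against 30.1% of its own. The cotyledon group had a median rank of 3712 in dry seed and held 3.64% of the dry seed pool, against 11.6% of its own. These groups were chosen on the libraries compared, so their calls were not counted as evidence. A group of 100 chosen from dry seed replicate 1 by itself made up 27.9% and 30.1% of the other dry seed libraries and 1.99% to 2.09% of the cotyledon libraries. A group chosen on cotyledon replicate 1 held 11.5% and 11.2% of the other cotyledon libraries and 2.90% to 3.66% of dry seed.

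**Figure D3:**
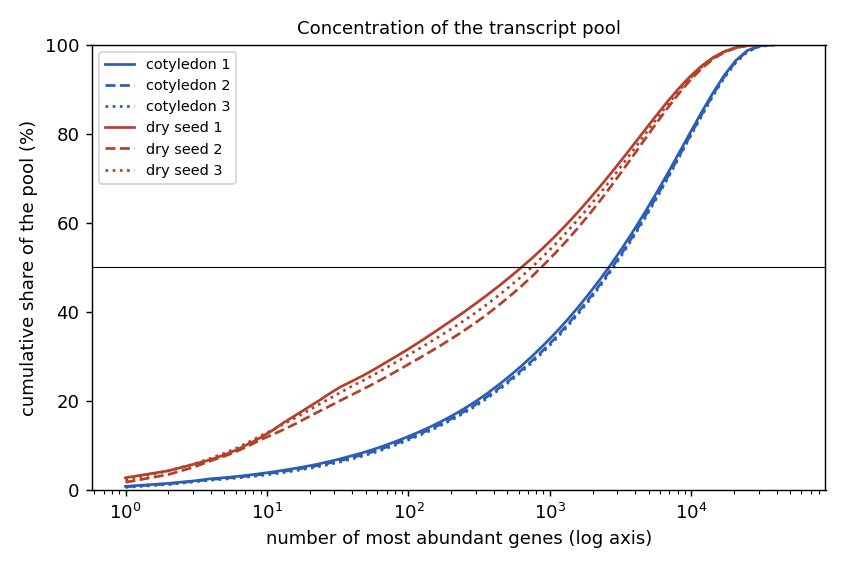
Cumulative share of the summed value (vertical, %) held by the most abundant genes of each library (horizontal, log axis), with a line at 50%. The dry seed curves lie above the cotyledon curves, and cross the line at 629 to 868 genes against 2606 to 2813.

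The genes called higher, 20.9% of those tested, held 13.7% ± 0.245 of the cotyledon pool and 74.3% ± 1.90 of the dry seed pool (SD, n = 3). Those called lower held 54.7% ± 0.195 and 4.53% ± 0.335. Since the genes were called on these libraries, these shares are a description. The stages between did not enter the contrast. There, genes called higher held 21.5% ± 1.09 of the early, 63.1% ± 0.963 of the mid and 67.2% ± 2.23 of the late maturation pool. Genes called lower held 49.5% ± 1.17, 19.9% ± 0.680 and 8.28% ± 1.21. In seedlings the shares were 27.2% ± 0.291 and 34.5% ± 0.519, so the seedling pool was intermediate in both. Without dry seed replicate 1, genes called higher held 73.7% ± 0.755 (SD, n = 2) of the dry seed pool, and without cotyledon replicate 3 they held 13.5% ± 0.248 (SD, n = 2) of the cotyledon pool.

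**Figure D4:**
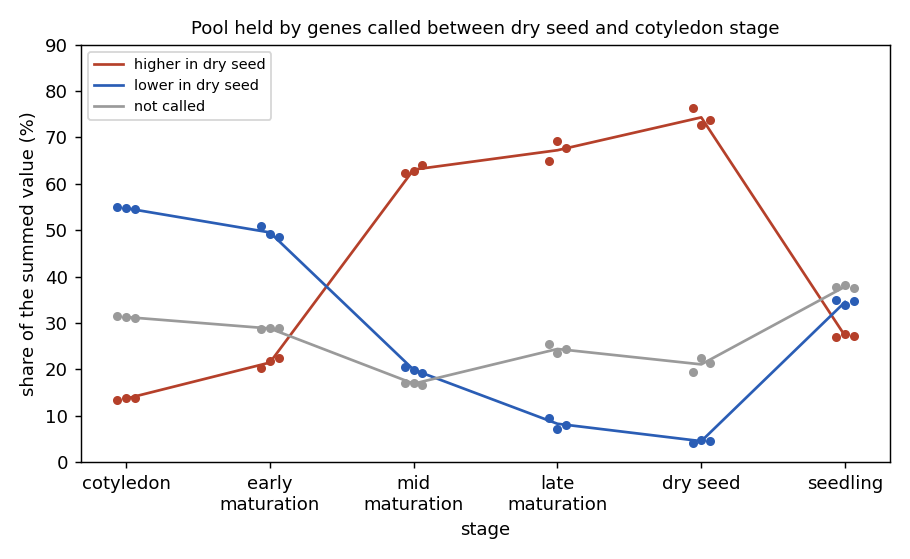
Share of the summed value (%) by stage held by genes called higher, called lower and not called between dry seed and cotyledon stage. Points are libraries and lines join stage means, with the higher group at 13.7% at the cotyledon stage, 63.1% in mid maturation and 74.3% in dry seed.

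When each called gene first crossed to its final side was read from its mean log2 levels. The stage taken was the first with a mean past the midpoint between the cotyledon and dry seed means. Some genes crossed back at a later stage, as given below. These first crossings are a description, with no test, and their counts were not recomputed on another scaling. Late maturation was the commonest stage in both directions. Its own libraries were not left out in turn, so the part of late maturation replicate 1 was not tested. Of genes called higher, 860 had passed the midpoint by early maturation, 1137 first did so in mid maturation, 4048 (52.6%) in late maturation and 1652 only in dry seed. Of genes called lower, 1755 had passed it by early maturation, 2925 first did so in mid maturation, 5919 (47.0%) in late maturation and 1987 only in dry seed. On a linear midpoint the early and final classes shifted. The gained genes then numbered 534 in early maturation and 2854 in dry seed, and the lost genes 3506 and 1171.

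How the classes went on is a description too. Of the 860 genes that gained early, 551 (64.1%) stayed past the midpoint at every later seed stage, and of the 1755 genes that fell early 1059 (60.3%) did. In the mid maturation classes 1038 (91.3%) of gained and 2787 (95.3%) of lost genes stayed. The early classes could cross back in mid or late maturation and the mid classes in late maturation only, so these shares cannot be compared. The 860 early gained genes held 1.42% ± 0.0302 of the cotyledon pool and 10.3% ± 0.827 of the dry seed pool (SD, n = 3). Between these they held 11.4% ± 0.689 (early), 52.6% ± 0.665 (mid) and 14.8% ± 2.47 (late) of the maturation pools. The median gene of this class did not follow its share. Its log2(value + 1) level was 2.47 at the cotyledon stage and 4.53 in dry seed. Over maturation it was 4.24 (early), 4.34 (mid) and 4.71 (late). Which members carried the mid maturation share was not tested. The share held by the 4048 genes that gained in late maturation had another course. It was 7.67% ± 0.0597 at the cotyledon stage and 4.66% ± 0.0957 at mid maturation. At late maturation it was 33.2% ± 3.15, and in dry seed 42.0% ± 1.46. The summed value of this class was 56455 ± 913 at the cotyledon stage and 72970 ± 2918 at mid maturation (SD, n = 3). Sums of whole libraries were higher at mid maturation too, 1542222 to 1603763 against 718779 to 753954. Whether the class rose or fell between these stages thus depends on the scale. Of the 4 classes, that of late maturation held the largest part of the 74.3% that all gained genes made up in dry seed.

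**Figure D5:**
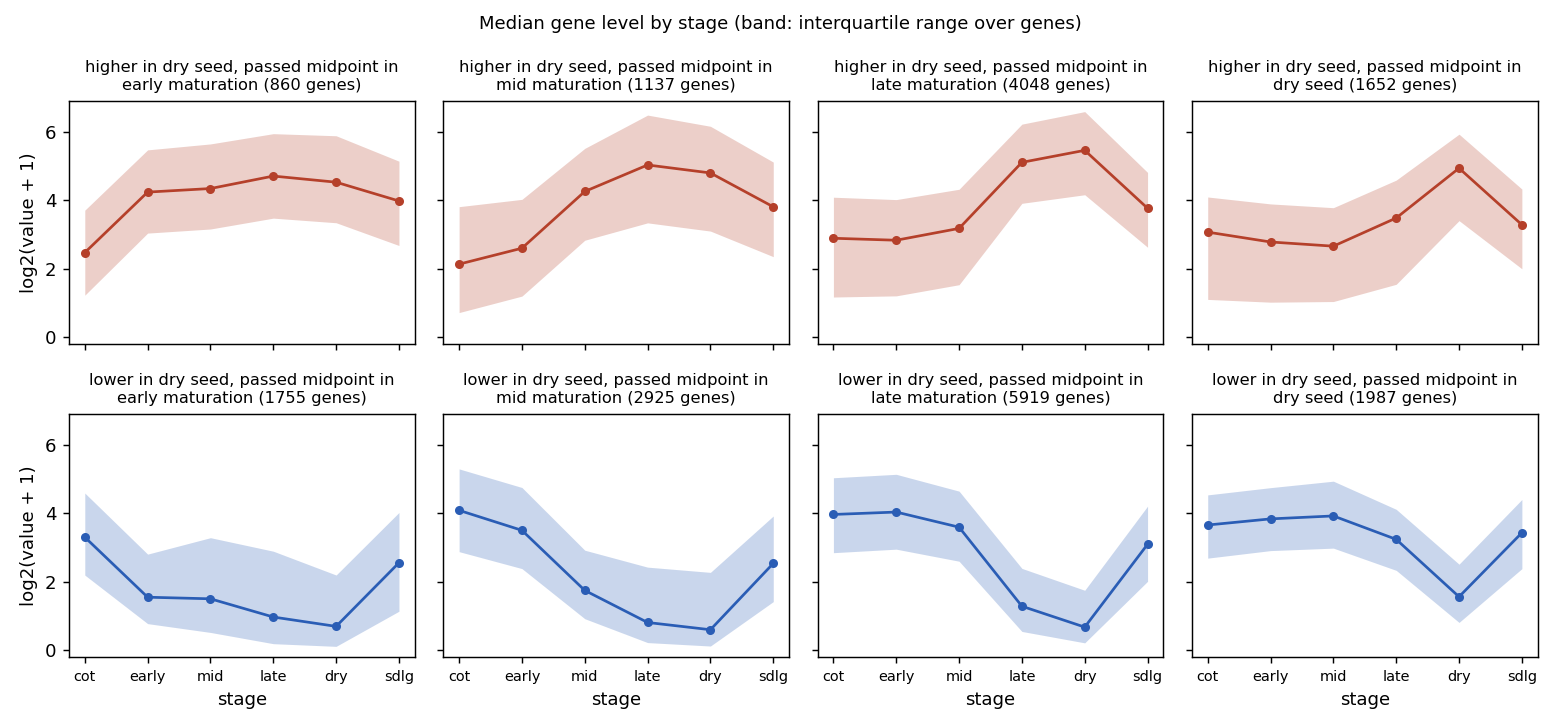
Median log2(value + 1) by stage (line and points) and interquartile range over genes (band) for genes called higher (top row) and lower (bottom row) in dry seed, split by the first stage past the midpoint. On the deposited scale the classes of late maturation, with 4048 and 5919 genes, stay near their cotyledon level through mid maturation.

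Levels in seedlings, whose libraries did not enter the contrast, lay nearer the cotyledon than the dry seed level for most genes. The seedling mean was on the cotyledon side of the midpoint for 4918 (63.9%) of genes called higher and for 7429 (59.0%) of genes called lower. The share was larger for the classes of late maturation and dry seed than for the earlier ones. Among genes called lower it was 51.4% and 39.1% where the midpoint had been passed in early and in mid maturation, 65.8% for late maturation and 74.9% for dry seed. Among genes called higher it was 44.3%, 50.7%, 67.3% and 74.7% in the same order. The genes had been chosen for their level in dry seed and sorted by how long they stayed on the cotyledon side. The part of either step in these shares was not tested.

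A comparison of the ends understates what happened between them. Among genes called higher, 229 had a maturation mean at least 2 above their dry seed mean on the log2 scale, 104 of them with the peak in mid and 117 in late maturation. These 229 genes held 0.132% ± 0.0160 of the cotyledon pool, 49.99% ± 0.652 of the pool at mid maturation and 4.71% ± 0.940 of the dry seed pool (SD, n = 3). This small set held most of the mid maturation share of the genes called higher. It was chosen for its high maturation means, so its shares, and those left to the other genes, are a description. The other 7468 genes called higher held 13.6% ± 0.229 of the pool at the cotyledon stage and 13.1% ± 0.348 at mid maturation. Their summed value was 99776 ± 750 and 204759 ± 7883 at these stages (SD, n = 3). Whole libraries differed likewise, with sums of 718779 to 753954 and 1542222 to 1603763, so no rise of this set is read from its summed value. The share of these 7468 genes was then 57.3% ± 4.86 at late maturation and 69.6% ± 2.73 in dry seed. Among genes called lower, 341 had a maturation mean at least 2 above their cotyledon mean, 159 with the peak in early and 177 in mid maturation. Their share was 1.02% ± 0.0662 in cotyledon-stage embryos, 8.13% ± 0.587 by early maturation and 0.0670% ± 0.00162 at the end. These 341 genes were also chosen on their maturation means, so the shares are a description.

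Of the 16589 genes not called, 753 had a mean between the ends at least 2 above both on the log2 scale, with the peak in early maturation for 171, in mid for 440 and in late maturation for 142. Another 141 lay at least 2 below both ends, with the lowest point in mid maturation for 70. With a margin of 3 the numbers were 254 and 16. Summed values per library at mid maturation were 1542222 to 1603763, the highest of any stage. The counts of genes above or below the ends, called or not, were not recomputed on another scaling. Of the 753, 244 passed the adjusted p at a difference under the limit, so not called does not mean equal. The 753 genes held 0.381% ± 0.0235 of the cotyledon pool, 2.34% ± 0.0396 of mid maturation and 0.239% ± 0.0120 of dry seed (SD, n = 3). They were chosen on the same libraries, so these shares are a description.

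Glyma.06G301500 is 1 of the 2 such genes with the highest peak mean. It stood at 24.7, 24.9 and 21.4 at the cotyledon stage and at 22.2, 23.2 and 24.5 in dry seed, and the libraries of both ends overlapped. The log2 difference between the ends was -0.02 (SE 0.135, limma adjusted p = 0.920), while its values at mid maturation were 3886, 4127 and 3460. Glyma.04G077600 reached 5664 ± 722 in early and 5493 ± 118 in mid maturation (SD, n = 3). Its ends lay at 21.9 ± 1.81 and 33.4 ± 14.8, with dry seed replicate 1 the highest at 49.6. They differed by 0.50 on the log2 scale (SE 0.211, limma adjusted p = 0.0353).

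The reverse course was seen in Glyma.18G204200. Its values were 416, 458 and 427 at the cotyledon stage and 550, 347 and 396 in dry seed, and the libraries overlapped. On the log2 scale the ends differed by -0.04 (SE 0.165, limma adjusted p = 0.858). Between these it was at 73.8 ± 16.3 (early), 67.2 ± 2.80 (mid) and 259 ± 39.2 (late maturation), each as mean ± SD with n = 3. Glyma.01G102600 stood at 14.8 ± 1.74 in mid maturation, against 139 ± 15.7 at the cotyledon stage and 229 ± 36.8 in dry seed. Its log2 difference between the ends was 0.71 (SE 0.140, limma adjusted p = 8.69e-05), which is under the limit for a call.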

How the data were processed

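The authors deposited 1 file of normalized signal per library, for 51546 genes. Per the submitters' processing notes, Bowtie 0.12.7 and edgeR 3.0.8 were used. Not given in the sources used here are the genome build, annotation and counting. Of 927828 signal values in the deposited files, 927825 lay within 0.05 of a whole multiple of the library's smallest non-zero value, which recovers whole reads.

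Genes were tested with limma 3.58.1 (R 4.3.3) as dry seed minus cotyledon, two-sided, on log2(value + 1), using the mean-variance trend and 1 mean per stage over all 18 libraries. The procedure was tested on simulated counts. Named genes have the largest or smallest log2 difference (2 each) among the 4789 called genes whose mean reached 50 at the higher end and whose ends did not overlap. Those named among genes not called have the highest stage mean of their class (2 each). Planned lists of named genes could not be formed. Alternatives changed the pseudocount, filter, scaling, libraries, limit, trend and replicate block, and used edgeR 4.0.16 and DESeq2 1.42.0 on recovered reads. Members, lists and tests were chosen with earlier results of these data known. Replicates are labelled biological.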

Additional observations from a re-analysis of the deposited data

How the results depend on the processing

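A limit of 2 on the log2 difference, stricter by construction, left 3673 genes higher and 7339 lower in dry seed. The linear midpoint moved the early and dry seed classes to 534 and 2854 gained and 3506 and 1171 lost genes. A margin of 3 left 254 genes above and 16 below both ends. The other 210 of 218 recomputed values kept their direction and call, or for counts stayed within 1.5 times, among them all values for the 4 genes named for their differences. On recovered reads, edgeR called 8940 genes higher and 14433 lower, and DESeq2 9295 and 13692. With a pseudocount of 4 the counts were 6001 and 8872. Leaving out 1 library at a time gave 7646 to 7758 genes higher and 12456 to 12672 lower. Replicate numbers did not pair the libraries, since deviations of same-numbered libraries correlated at -0.0225, 0.0428 and -0.0192. A fit with a replicate block called 7697 higher and 12586 lower. Fitted on the 6 libraries compared alone, the 4 genes named for their differences had limma adjusted p of 5.86e-07 to 2.69e-06. Depth limits genes near the floor most, chiefly in dry seed.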

Other observations

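Genes called in the same direction were spread over the genome, with some runs of neighbours. The identifiers carry a chromosome number. On the 20 chromosomes between 18.04% (chromosome 18) and 23.2% (chromosome 6) of tested genes were higher in dry seed, and between 31.6% (chromosome 15) and 36.5% (chromosome 18) were lower. In identifier order, 25.8% of the genes next to a gene called higher were themselves called higher, against 20.9% of all such partners. For genes called lower the share was 37.6%, against 34.2%. At a distance of 2 tested genes the shares were 21.5% and 34.8%. The longest run of consecutive tested genes called higher held 10 genes on chromosome 15, with log2 differences of 1.54 to 5.06. The longest run called lower held 9 genes on chromosome 2, with differences of -4.34 to -1.28. How long a run the shares of 20.9% and 34.2% give by themselves was not tested. Whether neighbouring copies share reads was not tested.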
